A study of Mus musculus with 24 samples.

Results

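The 39 protein-coding Hox genes were followed across 2 mouse fats, white (WAT) and brown (BAT) adipose tissue. They are the genes whose symbol is Hoxa, Hoxb, Hoxc or Hoxd followed by a number, out of 30699 gene identifiers listed in the data, and antisense and opposite-strand genes were left out. Messenger RNA came from mice of the C57BL/6 strain that had been injected under the skin 2 times with 25 mg/kg of an LNA (locked nucleic acid) oligonucleotide. The oligonucleotide was antimiR-224, antimiR-452 or, as the control, a scrambled sequence (scramblemiR), and each tissue and treatment gave 4 libraries, 24 in all. All animals carried an injected LNA oligonucleotide, no untreated group is used here, and neither age nor the anatomical depot is stated in the labels. Whether the libraries of a group stem from different animals is not stated, and p-values here cover the spread between these samples, which may be technical.

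Hox genes encode homeodomain transcription factors that give cells their position along the body axis. They lie in 4 clusters, Hoxa on chromosome 6, Hoxb on 11, Hoxc on 15 and Hoxd on 2. Low paralog numbers are expressed towards the head and high ones towards the tail, and adult fat depots keep part of this code from the embryonic region in which they formed. Brown fat between the shoulder blades and white fat of the lower trunk are therefore known to differ in it.

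Of the 39 genes, 34 had a row in the WAT tables and 30 in the BAT tables, and 28 had a row in all 4 tables. Hoxb1, Hoxb13, Hoxc12, Hoxc13 and Hoxd12 are not analysed here. Hoxa13, Hoxc11, Hoxd11 and Hoxd13, the genes at the tail end of the clusters, had rows for WAT but none for BAT. The deposited values are group means, from which whole reads per library were recovered, and the libraries are numbered within a group by descending size factor since no label can be tied to them. Values are normalized counts, reads divided by a size factor shared by all 24 libraries, unless another scale is named. The control libraries held 22175430 to 27935908 reads in genes in WAT and 16960694 to 20255777 in BAT. The tissue labels went with their markers: Ucp1, the uncoupling protein of brown fat, had a lowest value of 61290 in the BAT controls and a highest of 135 in the WAT controls. Leptin (Lep) was at 2799 to 8900 in the WAT controls and 55.3 to 115 in BAT, and the mesothelial gene Wt1 at 126 to 605 in WAT and 0 in every BAT control. Several libraries were high in markers of other tissues. Germ cell genes, 21 of 22 recovered in WAT, summed to 33070 in WAT scramblemiR library 2 and to 270 to 461 in the other WAT controls, and to 9628 in WAT antimiR-224 library 3.

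In the scramblemiR controls 13 Hox genes were higher in WAT and 2 were higher in BAT, of 26 that reached a mean of 10 over the 8 libraries. These were adjusted p-values of at most 0.05 in limma. The background was 21.6% of all 16436 genes called higher in WAT and 21.1% called higher in BAT. The remaining 11 tested Hox genes did not pass. The median log2 difference, WAT minus BAT, was 0.89 over the tested Hox genes and 0.02 over all genes. In bulk tissue, fewer cells of a type and less RNA per cell cannot be told apart. All 12 mesothelial markers and 9 of 10 macrophage markers were higher in WAT in the same comparison, 10 of 11 tested brown adipocyte markers were higher in BAT, and none of the 10 endothelial markers passed. Also higher in WAT were 6 of 7 tested tubule epithelium, 6 of 13 ciliated epithelium and 4 of 10 stromal progenitor markers, the last with 1 higher in BAT. Of 18 skeletal muscle markers 5 were higher in BAT, where the muscle gene Ckm ranged from 78.5 to 126000 among the 4 controls. Without WAT library 2, the one high in germ cell genes, 11 Hox genes were higher in WAT and 2 in BAT. The part of these cell types in the Hox differences was not tested.

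Among the tested genes, the differences went with paralog number. Among paralogs 1 to 4, 1 of 9 tested genes was higher in WAT and 1 in BAT, with a median log2 difference of -0.12. Among paralogs 5 to 8, 7 of 11 were higher in WAT and 1 in BAT, with a median of 1.07. Among paralogs 9 to 13, 5 of 6 tested genes were higher in WAT and none in BAT, with a median of 3.24, but 10 of the 16 members of that range were too low or not listed for a test. A gene that passed the filter through the tissue where it is high had to differ, so these counts hold for tested genes only. This applies to Hoxa10, Hoxb9, Hoxc9 and Hoxc10, whose BAT means were 0.75, 5.73, 0.97 and 0. Of the called genes in paralogs 9 to 13, only Hoxa9 had a BAT mean above the filter of 10 (19.0). The count and median of that range were thus largely set by the filter. By cluster, 3 of 9 tested Hoxa genes, 5 of 8 Hoxb, 4 of 6 Hoxc and 1 of 3 Hoxd genes were higher in WAT, and both genes higher in BAT belonged to Hoxa.

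**Figure D1:**
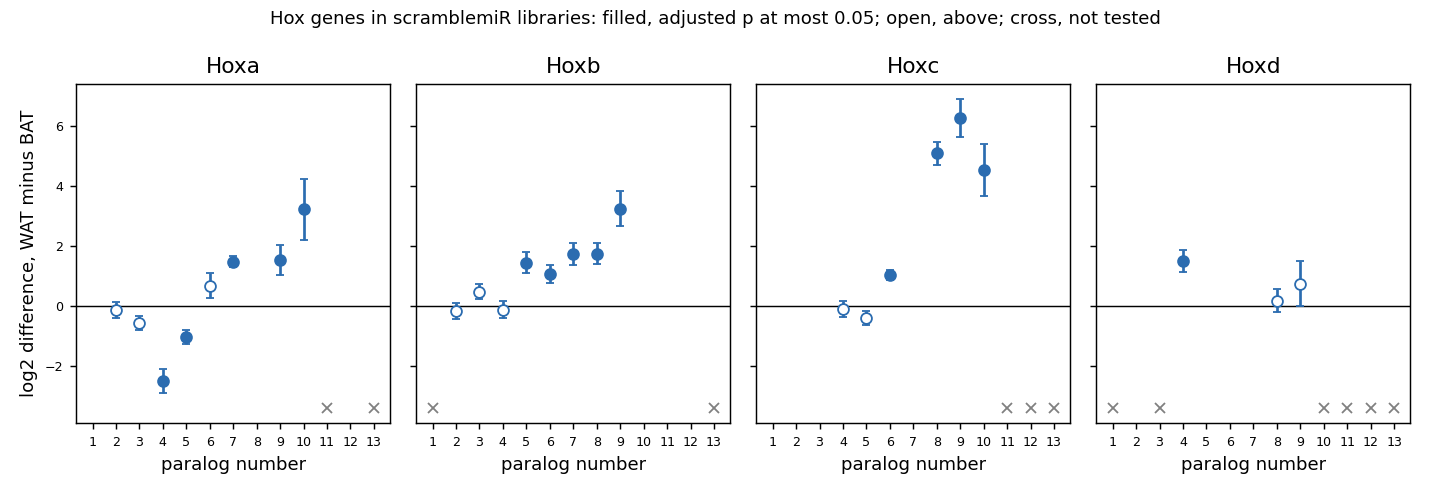
Log2 difference between WAT and BAT scramblemiR libraries (y axis, log2 of normalized count + 1, WAT minus BAT, bars give the standard error, 4 libraries a tissue) by paralog number (x axis) in the 4 clusters. Filled points passed an adjusted p of 0.05, open points did not and crosses mark members not tested; the points climb from Hoxa4 at -2.51 to Hoxa10 at 3.23 within Hoxa, and Hoxc8, Hoxc9 and Hoxc10 stand at 4.55 or above.

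Hoxc8, Hoxc9 and Hoxc10 had the 3 largest differences of all Hox genes tested. They lie side by side on the plus strand of chromosome 15 in GRCm38 and encode factors of the trunk and lumbar region. Hoxc8 (102990607 to 102994111) stood at 2720, 1874, 3254 and 2639 in the 4 WAT controls. In the BAT controls it stood at 175, 47.0, 56.7 and 64.7. Every WAT library was above every BAT library, with BAT library 1 above its group. The log2 difference was 5.10 (SE 0.38, adjusted p 2.21e-05, limma, n = 4 a group), from means of 2622 ± 568 (SD) and 86.0 ± 60.

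Hoxc9 (102976439 to 102985099) was found in every WAT control, at 130, 145, 130 and 67.4. In the BAT controls it had 3 reads in all, at 3.87 in library 1 and 0 in the others. That is 116 times as much in WAT, with a 95% exact binomial interval of 39.4 to 563 that covers counting error only. The fitted log2 difference was 6.27 (SE 0.64, adjusted p 7.45e-05). Hoxc10 (102966796 to 102971893) was uneven among the WAT controls, at 49.9, 39.2, 6.40 and 18.8. All 4 BAT controls were at 0 reads. Set against 3 reads over the group, Hoxc10 was at least 29.0-fold higher in WAT (adjusted p 0.00231, limma), and 8.7% of its exonic bases are shared with another gene on the same strand.

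Hoxc6, the next Hoxc gene towards the head end, differed much less. It stood at 493, 415, 590 and 407 in WAT and 240, 212, 226.9 and 246 in BAT, without overlap. The log2 difference was 1.03 (SE 0.16, adjusted p 8.19e-04). Hoxc5 and Hoxc4 did not pass, with log2 differences of -0.41 (adjusted p 0.174) and -0.09 (adjusted p 0.791). The Hoxc cluster was thus expressed in both tissues at its head end, while Hoxc9 and Hoxc10 were at or near 0 reads in the BAT controls.

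In the Hoxb cluster the 5 genes from Hoxb5 to Hoxb9 were all higher in WAT. They are neighbours on chromosome 11, and Hoxb9 (96271457 to 96276595, plus strand) is the one nearest the tail end among those measured. Hoxb9 stood at 31.3, 75.8, 32.8 and 145 in the WAT controls and 3.87, 2.61, 8.72 and 7.70 in BAT. WAT libraries 2 and 4 were high within their group, and no values overlapped between tissues. The log2 difference was 3.25 (SE 0.59, adjusted p 0.00175).

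Hoxb8 (96281905 to 96285315, plus strand) stood at 62.6, 71.1, 106 and 189 in WAT and 27.1, 32.7, 26.2 and 27.7 in BAT, a log2 difference of 1.75 (SE 0.36, adjusted p 0.00339). Hoxb7 was close to it, at 73.2, 53.2, 102 and 174 against 25.8, 22.2, 27.6 and 30.8 (log2 1.75, adjusted p 0.00387). Both were nearly level among the BAT controls and spread in WAT, with library 4 highest. Hoxb5 stood at 73.9, 63.2, 118 and 183 in WAT and 33.5, 39.2, 27.6 and 46.2 in BAT (log2 1.45, adjusted p 0.00920). Hoxb6 stood at 80.5, 95.7, 126 and 166 in WAT and 49.0, 75.8, 53.8 and 40 in BAT (log2 1.07, adjusted p 0.0164). The 2 groups came close for Hoxb6, whose highest BAT value lay just under the lowest in WAT. Hoxb2, Hoxb3 and Hoxb4 did not pass, with log2 differences of -0.16, 0.48 and -0.12.

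The Hoxa cluster changed direction along its length. Hoxa4 and Hoxa5 were higher in BAT, whereas Hoxa7, Hoxa9 and Hoxa10 were higher in WAT. Hoxa5, which is known for roles in neck, chest and lung development and in adipocytes, lies at 52201754 to 52204587 on the minus strand. Hoxa4 (52189671 to 52191753, minus strand) stood at 36.6, 101, 39.2 and 87.8 in the WAT controls. In BAT it stood at 195, 333, 448 and 484, all above WAT. The log2 difference was -2.51 (SE 0.40, adjusted p 9.45e-04). Of the exonic bases of Hoxa4, 16% lie opposite another gene, and since it is not stated whether the counting used strand, reads of the 2 strands may be mixed there. Hoxa5 stood at 296, 378, 512 and 421 in WAT and 558, 792, 899 and 1112 in BAT, without overlap (log2 -1.05, SE 0.24, adjusted p 0.00554). With scaling by library totals, the Hoxa5 difference was -0.49 and no longer passed (adjusted p 0.103).

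Hoxa7 stood at 748, 614, 932 and 1001 in WAT and 288, 238, 327 and 316 in BAT (log2 1.48, SE 0.19, adjusted p 2.43e-04). It had the smallest spread relative to its level of the 3 Hoxa genes that were higher in WAT, and 20.4% of its exonic bases lie opposite another gene. Hoxa9 stood at 120, 77.1, 27.2 and 35.0 in WAT and 20.6, 11.8, 16 and 27.7 in BAT. Its groups overlapped (log2 1.54, adjusted p 0.0314), and the adjusted p rose to between 0.0633 and 0.0931 when WAT library 1 or 2 or BAT library 2 or 3 was left out. Hoxa10 stood at 49.9, 29.9, 4.0 and 5.12 in WAT and had 2 reads over the 4 BAT controls. That is a ratio of 34.7 with a 95% exact binomial interval of 9.42 to 290 for counting error (adjusted p 0.0269, limma). Without BAT library 1 or 2 its adjusted p was 0.0541 or 0.0607. Without WAT library 1 or 2 its mean fell under 10 and it was not tested. WAT library 1 was the highest of its group for Hoxa9, Hoxa10, Hoxa11, Hoxa13 and Hoxc10. Hoxa11 stood at 8.65, 3.32, 0.80 and 0 there and at 0 in all BAT controls, at least 3.36-fold higher in WAT against 3 reads over the group, and was too low to test. Hoxa13 stood at 20, 1.99, 0 and 0 in the WAT controls.

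Hoxd4 was the 1 tested Hoxd gene that passed, at 41.9, 35.9, 41.6 and 33.3 in WAT and 11.6, 7.84, 20.4 and 13.9 in BAT (log2 1.51, SE 0.37, adjusted p 0.00911). Of its exonic bases, 52.3% are shared with another gene on the same strand, mainly its neighbour Hoxd3, so its reads are uncertain. Hoxd8 and Hoxd9 did not pass (adjusted p 0.726 and 0.442), and their BAT controls were split. Hoxd9 stood at 231 and 157 in BAT libraries 1 and 2 but at 16 and 40 in libraries 3 and 4, on either side of the 97.2 to 132 of WAT. Hoxd10 stood at 5.33, 12.6, 1.60 and 0.85 in WAT and had 1 read in BAT, a ratio of 15.9 with an interval of 2.64 to 649, and was not tested. Hoxc11, Hoxd1, Hoxd11 and Hoxd13 had a value above 0 in 1 of the 4 WAT controls each, of 3.99 or less.

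Among the 11 tested genes that did not pass were Hoxa2, Hoxa3, Hoxa6, Hoxb2, Hoxb3, Hoxb4, Hoxc4, Hoxc5, Hoxd8 and Hoxd9. The log2 differences of the 11 ran from -0.56 (Hoxa3, adjusted p 0.0835) to 0.75 (Hoxd9), and WAT and BAT values overlapped for each of them. Scaled by library totals, the median of all genes moved from 0.02 to 0.58, 81.4% rather than 50.6% of all calls were higher in WAT, and Hoxa6 and Hoxb3 passed as higher in WAT.

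**Figure D2:**
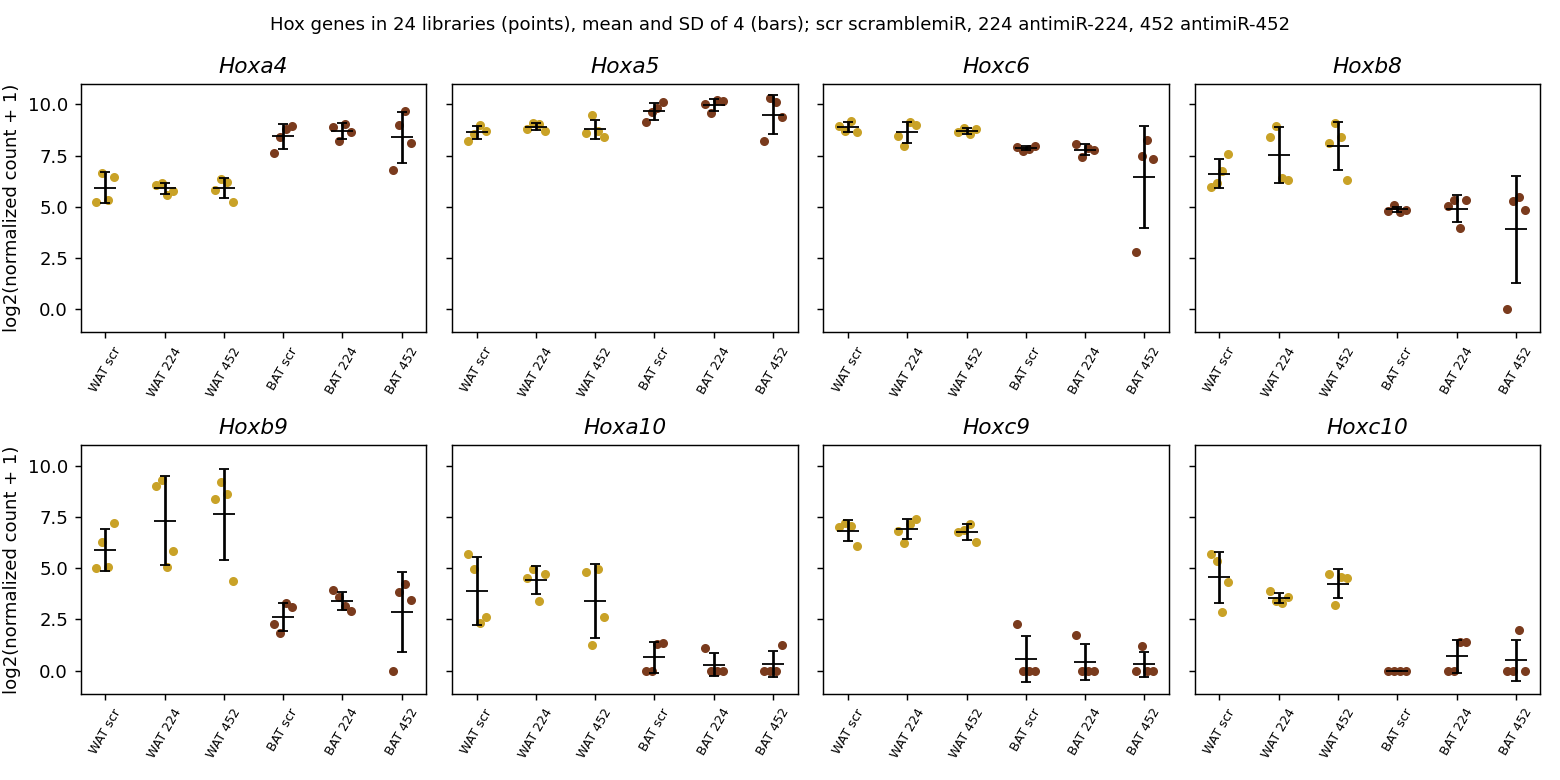
Normalized count of 8 Hox genes (y axis, log2 of count + 1) in the 4 libraries of each of 6 groups (x axis), with mean and SD in black. Hoxc9 stands at 67.4 or more in every WAT library and at 3.87 or less in every BAT library, Hoxa4 is higher in BAT, and in Hoxb8 and Hoxb9 several WAT libraries of the inhibitor groups lie far above the others.

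Per length, the 2 tissues had different leading Hox genes. On the RPKM scale, in which reads are divided by exonic length and by the reads in all genes of the library, Hoxc8 was first in the WAT controls at 51.6 ± 6.84 (SD, n = 4), followed by Hoxa7 (16 ± 2.1), Hoxa5 (12.1 ± 2.64), Hoxc6 (11.1 ± 1.68) and Hoxd8 (10.1 ± 0.578). The lowest Hoxc8 value, 44.6, lay above the highest Hoxa7 value, 18.4, while Hoxa7 overlapped with Hoxa5, and Hoxa5, Hoxc6 and Hoxd8 overlapped one another. In the BAT controls Hoxa5 came first at 17.1 ± 4.36, then Hoxa4 (8.76 ± 3.11), Hoxd8 (6.95 ± 3.96), Hoxc4 (4.98 ± 1.64) and Hoxc5 (4.77 ± 1.34). Hoxa5 did not overlap with Hoxa4 there, and the following 4 did overlap. Hoxc8 was 12th in BAT, at 1.17 ± 0.828.

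Summed over the members on the same scale, Hox expression was 138, 149, 169 and 156 in the WAT controls and 60.7, 64.9, 69.1 and 73.4 in BAT. This scale divides by library totals and sets WAT higher than the size factors do. With size factors the sums, as normalized count per kb, were 2574, 2212, 3189 and 2945 in WAT and 1565, 1718, 1705 and 2021 in BAT. That gap was smaller and still held no overlap. Hoxc8 alone had a mean RPKM of 51.6 in the WAT controls and 1.17 in BAT. The gap and the Hoxc share therefore rest heavily on this gene, and sums without it were not made. Hoxc genes made up 45.4% to 55.9% of the sum in WAT and 16.2% to 24.7% in BAT. Hoxa genes made up 23.0% to 26.7% in WAT and 39.3% to 58.5% in BAT. The share of paralogs 1 to 4 was 13.3% to 16.7% in WAT and 28.9% to 40.2% in BAT. Paralogs 9 to 13 made up 4.20% to 9.13% in WAT. In BAT they made up 7.38% and 4.45% in libraries 1 and 2, where Hoxd9 was high, and 0.832% and 1.35% in libraries 3 and 4.

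Upstream sequence is shown for 1 gene of each direction, Hoxa5 (higher in BAT) and Hoxb8 (higher in WAT), as the 250 bases before the start site in RefSeq on GRCm38.p6. Promoter sequences matched 22 of the 39 genes. The following motifs were searched on both strands: TGATNNAT, bound by Pbx-Hox pairs, TTTATNG, bound by Hox proteins of high paralog number, and TGACAG, bound by Meis proteins. Capitals mark a match, and none of these motifs overlaps another in the sequences shown.
Hoxa5, chr6:52204588-52204837, minus strand: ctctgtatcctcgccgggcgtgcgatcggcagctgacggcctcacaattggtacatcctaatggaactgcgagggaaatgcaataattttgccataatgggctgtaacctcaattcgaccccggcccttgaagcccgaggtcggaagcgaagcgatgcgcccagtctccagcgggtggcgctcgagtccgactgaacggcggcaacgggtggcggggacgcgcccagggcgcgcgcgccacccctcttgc
Hoxb8, chr11:96281655-96281904, plus strand: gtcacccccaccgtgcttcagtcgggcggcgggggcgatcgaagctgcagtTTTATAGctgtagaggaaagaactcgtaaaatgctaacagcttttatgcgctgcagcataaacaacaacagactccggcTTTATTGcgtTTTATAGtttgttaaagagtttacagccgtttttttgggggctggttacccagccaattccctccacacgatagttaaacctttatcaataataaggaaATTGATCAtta
Hoxb8 held 3 matches to TTTATNG and 1 to TGATNNAT, and none of these letter patterns was found in this window of Hoxa5. Over 32851 windows of the same length, 9.81% held TTTATNG, 7.68% TGATNNAT and 15.9% TGACAG. Among the 22 Hox windows 2, 3 and 2 did. A match is a description of letters and no site.

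The depot comparison was repeated in the inhibitor libraries, which share no library with the controls. With antimiR-224, 12 of 23 tested Hox genes were higher in WAT and 3 in BAT, against 26.9% and 20.2% of all 11569 genes. With antimiR-452, 10 of 23 were higher in WAT and 1 in BAT, against 18.7% and 11.3% of all 11211 genes. Abundant genes of the inhibitor groups could not be recovered per library, and Hoxc8 and Hoxa7 in WAT were among them. Of the 13 genes higher in WAT in the controls, 10 were tested with antimiR-224 and all 10 passed. With antimiR-452, 10 were tested and 8 passed, the others being Hoxc6 (log2 2.25, adjusted p 0.113) and Hoxa9 (log2 2.39, adjusted p 0.101). Hoxa10 and Hoxc9 with antimiR-224, and Hoxc9 and Hoxc10 with antimiR-452, passed the filter through WAT. Their BAT means were 0.29 and 0.59, then 0.33 and 0.74, so these genes had to differ. Hoxb9 with antimiR-224, at a BAT mean of 9.92, also passed the filter through WAT. Hoxa6 and Hoxb3 passed as higher in WAT with both inhibitors. Hoxa6 had BAT means of 6.01 and 6.85, so it passed the filter through WAT each time and had to be higher there. Of the exonic bases of Hoxb3, 52.9% lie opposite another gene. Hoxa4 was higher in BAT each time, at log2 -2.82 (adjusted p 3.43e-05), then -2.49 (adjusted p 0.0118), and Hoxa5 passed with antimiR-224 (log2 -1.06, adjusted p 9.35e-04) but not with antimiR-452 (log2 -0.72, adjusted p 0.257). Hoxc5 passed as higher in BAT with antimiR-224, at log2 -0.76 (adjusted p 0.0139).

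Single libraries moved the antimiR-452 counts. With each library left out in turn, 2 to 14 Hox genes were higher in WAT. The count was 2 without WAT antimiR-452 library 1, 3 without library 2 and 3 without library 3, and it was 14, with 2 higher in BAT, without BAT antimiR-452 library 1. Without WAT libraries 1 and 3, which were high in epididymis and skeletal muscle markers, 1 and 0 passed.

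Over all 24 libraries, 5 of 24 Hox genes with a mean of at least 10 had every WAT value above every BAT value, and 1 had the reverse. Among all 11089 such genes the shares were 8.71% and 6.92%. The 5 were Hoxb8, Hoxb9, Hoxc9, Hoxc10 and Hoxd4, and the 1 was Hoxa4. Hoxc9, Hoxc10 and Hoxa10, with a BAT median of 0, reached the mean of 10 through WAT and had to be higher there. Of these, Hoxa10 overlapped between tissues. Hoxb9 and Hoxa6 also had BAT medians under 10, at 8.39 and 8.72, and Hoxa6 overlapped between tissues. Hoxc9 ranged from 67.4 to 166 with a median of 123 over the 12 WAT libraries and from 0 to 3.87 with a median of 0 over the 12 BAT libraries. Hoxa4 ranged from 36.6 to 101 (median 60.1) in WAT and from 112 to 830 (median 428) in BAT. The deposited means of Hoxc8, on the scale of each table, were 3515 and 3353 for scramblemiR and antimiR-224 in WAT and 61.9 and 74.3 in BAT, in the authors' deposited table.

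Next it was asked whether either inhibitor changed Hox genes within a tissue. Mature microRNAs are not measured in these libraries, so inhibition could not be checked. The mature sequences are shown from RefSeq, GRCm38.p6, because their seed, bases 2 to 8 in capitals, sets which messenger RNAs they can pair with; both genes lie on chromosome X, within the host gene Gabre.
mmu-miR-224-5p: uAAGUCACuagugguuccguu
mmu-miR-452-5p: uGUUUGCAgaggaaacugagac
The 2 seeds differ. A match to the miR-224 seed (GTGACTT) was found in the longest annotated 3' untranslated region of 6 of the 39 Hox genes (15.4%), against 12.8% of 21014 coding genes. For miR-452 (TGCAAAC) it was 3 of 39 (7.69%), against 9.74%. The sites of the Hox genes called between tissues are shown with the match in capitals.
Hoxa5, miR-224, chr6:52202499-52202525, minus strand: cagtactaagGTGACTTtctgaaactc
Hoxa5, miR-224, chr6:52202070-52202096, minus strand: tgttgtagagGTGACTTgataagacac
Hoxa7, miR-224, chr6:52214671-52214697, minus strand: ttttaatgggGTGACTTtgtagcatgg
Hoxa7, miR-452, chr6:52215239-52215265, minus strand: ggccaataccTGCAAACcatgatcaat
Hoxb5, miR-224, chr11:96305487-96305513, plus strand: catgtttaatGTGACTTcccctccccg
Hoxc6, miR-224, chr15:103011125-103011151, plus strand: atgatgtgttGTGACTTcctaaaacaa
Hoxc9, miR-452, chr15:102984294-102984320, plus strand: aggggaaaaaTGCAAACtcttgcgatg
The other genes with a site were Hoxc13 and Hoxd10 for miR-224 and Hoxd3 for miR-452.

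Apart from Hoxc13, which is not analysed here, the genes with a site did not pass in the authors' deposited table. Hoxa5, with 2 miR-224 sites, had means of 541 and 663 in WAT (log2 0.29, adjusted p 1) and 606 and 727 in BAT (log2 0.26, adjusted p 1) in that table. For Hoxa7 the log2 ratio to the control was -0.004 in WAT and 0.28 in BAT for antimiR-224, then -0.01 in WAT and 0.35 in BAT for antimiR-452, in the authors' deposited table. Hoxb5 had log2 ratios of 0.42 in WAT and 0.53 in BAT and Hoxc6 of -0.18 and -0.08 with antimiR-224 there. Hoxc9 had a log2 ratio of -0.08 in WAT with antimiR-452 in the authors' deposited table. In the same authors' deposited table, Hoxd3 had 1.01 in WAT with antimiR-452, from means of 12.8 and 25.8. Hoxd10 had 0.74 in WAT with antimiR-224, from means of 7.04 and 11.8 there. In BAT these means were 1.7 and 0.90 for Hoxd3, then 0.23 and 0.42 for Hoxd10.

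No Hox gene passed an adjusted p of 0.05 for either inhibitor in either tissue, in the authors' deposited table or in limma. The background was 0.00343% of all genes in WAT with antimiR-224 (1 gene) and 0% in the other 3 comparisons of the authors' deposited table, and 0% in each limma comparison. At an unadjusted p under 0.05, the authors' deposited table held 1.55% and 2.41% of all genes in WAT with antimiR-224 and antimiR-452, and 1.15% and 0.499% in BAT. Hox genes at that p numbered 0, 3, 0 and 0 in the same order. In limma they numbered 1 of 25, 5 of 25, 0 of 21 and 1 of 21. Of all genes, 781 of 13580, 628 of 13164, 664 of 11848 and 469 of 11492 were at that p in limma. The interaction of tissue and treatment also called 0% of all genes for both inhibitors, with 0 of 24 and 2 of 23 Hox genes at an unadjusted p under 0.05, among 871 of 11690 and 600 of 11361 of all genes.

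**Figure D3:**
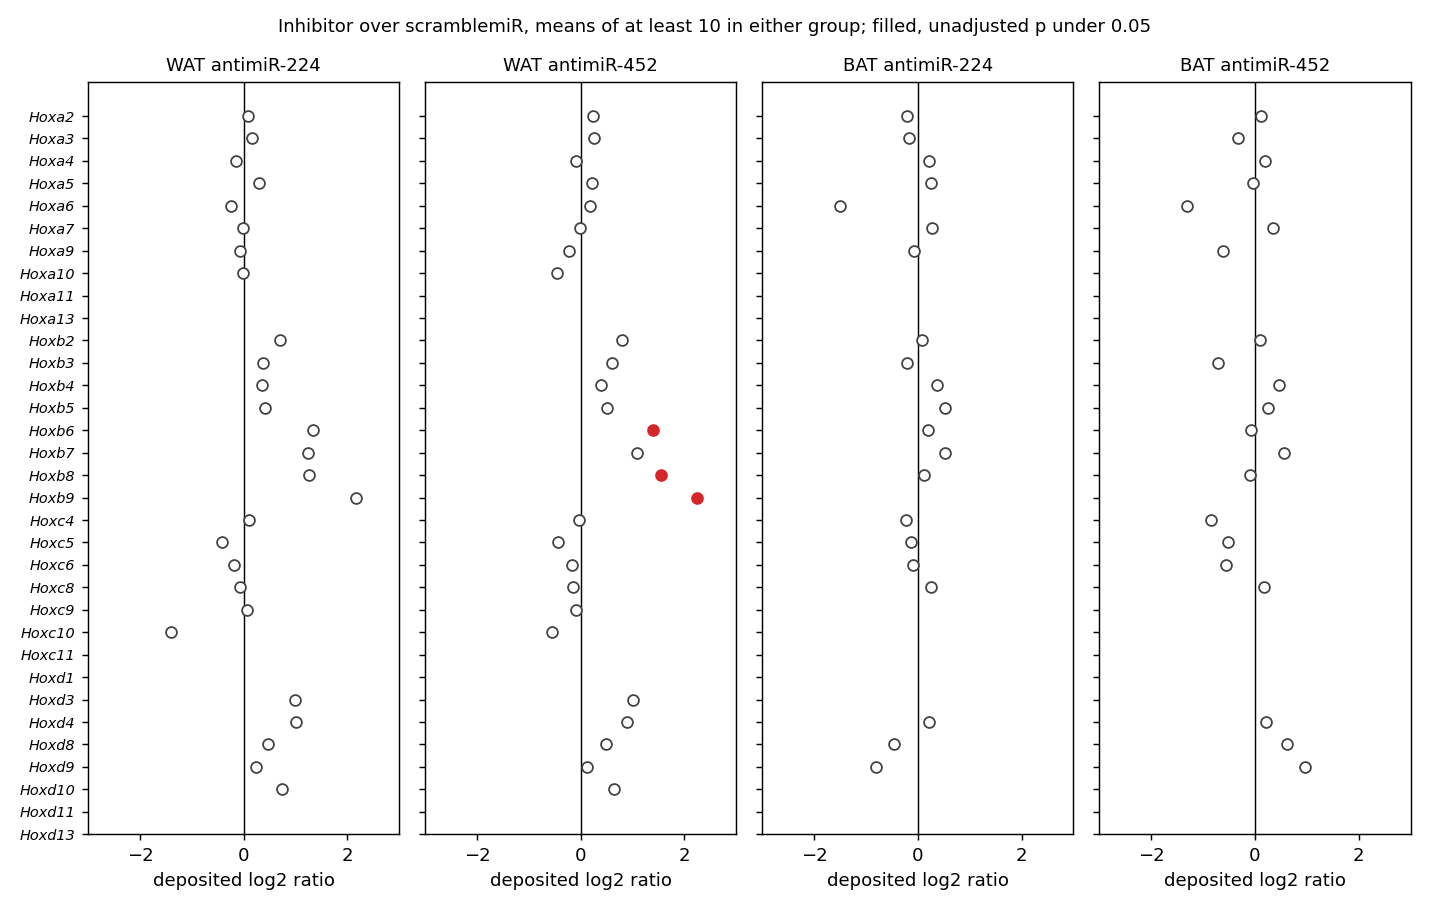
Deposited log2 ratio of inhibitor to scramblemiR (x axis) for Hox genes with a mean of at least 10 in either group (y axis) in the 4 comparisons. Filled points had an unadjusted p under 0.05, which in WAT with antimiR-452 were Hoxb6 (1.39), Hoxb8 (1.55) and Hoxb9 (2.24); Hoxb6 to Hoxb9 lie right of 0 in both WAT panels, which share their controls.

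The smallest unadjusted p-values in WAT in the authors' deposited table were those of Hoxb genes. In the authors' deposited table for antimiR-452, the Hoxb9 mean was 97.4 in the controls and 461 in treated WAT (log2 2.24, unadjusted p 0.0124, adjusted p 0.901). The authors' deposited table gave 159 and 418 for Hoxb6 (unadjusted p 0.0209, adjusted p 1), and 145 and 427 for Hoxb8 (unadjusted p 0.0266, adjusted p 1). With antimiR-224, Hoxb9 had means of 96.7 and 436 (unadjusted p 0.0801, adjusted p 1), Hoxb7 of 135 and 321 (unadjusted p 0.0954) and Hoxb6 of 158 and 397 (unadjusted p 0.119) in that authors' deposited table. Both comparisons use the same 4 controls.

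In limma the smallest unadjusted p of a Hox gene in WAT was that of Hoxc5 for both inhibitors, a gene named after its values were seen. It stood at 266, 229, 352 and 289 in the controls, then 170, 208, 248 and 209 under antimiR-224 and 217, 183, 208 and 219 under antimiR-452. All antimiR-452 values lay below the lowest control, and antimiR-224 library 3 lay within the control range. The share of all genes without such overlap was not counted. The log2 differences were -0.42 (unadjusted p 0.0264, adjusted p 0.861) and -0.43 (unadjusted p 0.0173, adjusted p 0.994), against the same 4 controls. The other 4 Hox genes at an unadjusted p under 0.05 with antimiR-452 were Hoxb6, Hoxb8, Hoxd4 and Hoxd8, all with higher means in the treated group.

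Per library, these means came from part of each group. Hoxb9 gave 523, 639, 32.4 and 56.6 under antimiR-224, then 332, 583, 394 and 19.5 under antimiR-452, against 31.3 to 145 in the controls. Above all controls were antimiR-224 libraries 1 and 2 together with antimiR-452 libraries 1, 2 and 3, and the other 3 inhibitor libraries were within or below the control range. Hoxb8 followed the same libraries, at 338, 495, 85.1 and 77.8 under antimiR-224, then 278, 542, 334 and 78.8 under antimiR-452. So did Hoxb6, at 385, 571, 106 and 80.3 and at 302, 497, 323 and 85.6. Hoxb7 stood at 316, 426, 88.4 and 95.5 under antimiR-224, then 190, 319, 245 and 83.0 under antimiR-452.

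Hoxb2 and Hoxb3 were also highest in the same 5 libraries, at 146 to 298 and 240 to 360. In the other 7 WAT libraries they stood at 76.6 to 138 and 105 to 230. Hoxb4 and Hoxb5 overlapped between the 2 sets of libraries. Outside Hoxb, Hoxd3, Hoxd4 and Hoxd8 were highest in the same 5 libraries, and all these genes were chosen after their values were seen. Hoxd3 stood at 16.8 to 34.4 in them and 2.54 to 12.8 in the other 7 WAT libraries, and Hoxd4 at 74.3 to 134 and 33.3 to 41.9. Of the exonic bases of Hoxd3, 62.3% are shared with another gene on the same strand, so Hoxd3 and Hoxd4 may not be separate observations. Hoxd8 stood at 806, 972, 652, 861 and 721 in the 5 libraries and at 405 to 541 in the other 7 WAT libraries. Hoxc9 did not follow these genes, at 74.9 to 143 in the 5 and 67.4 to 166 in the other 7. The microRNA gene Mir196a-1, which lies beside Hoxb9 and was looked up after these values were seen, had 38, 39, 27, 24 and 26 reads in the 5 libraries and 3 or fewer in each of the others.

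The same 5 libraries were high in markers of tubule epithelium, a list with genes of proton pumps and ion transport such as Atp6v0a4. Of its 14 genes 11 could be recovered in all 12 WAT libraries. Summed, they gave 2065 and 2890 normalized counts in the first pair of antimiR-224 libraries, against 698 and 396 in the other pair. For antimiR-452 the sums were 1817, 2298, 1762 and, in library 4, 369, and the controls lay at 202 to 404. Between 0 and 1 of the 11 genes had no read in the 5 libraries, and 1 to 4 in the others. Ciliated epithelium genes, 17 of 19 recovered, summed to 5109 to 8421 in the 5 libraries and to 233 to 3867 in the others. The part of epithelium in the Hoxb values was not tested. Without antimiR-224 libraries 1 and 2 the limma log2 differences of Hoxb9, Hoxb7 and Hoxb6 were -0.45, -0.01 and -0.31 rather than 1.45, 1.02 and 0.90 (adjusted p 0.9998 each). Those were also the 2 libraries of the group in which the 3 genes were highest, so a lower value followed from the choice. Without antimiR-452 library 4, the 1 library of its group low in these markers and in Hoxb6 to Hoxb9, 503 genes passed in limma and 4 Hox genes were among them. Those were Hoxb9 (log2 2.88, adjusted p 0.0327), Hoxb6 (1.72, adjusted p 0.0220), Hoxb8 (1.95, adjusted p 0.0418) and Hoxd4 (1.11, adjusted p 0.0498). With that library kept, 0 of 13164 genes and 0 of 25 Hox genes passed. Library 4 was the lowest of its group in these 4 genes, so larger differences followed from the choice.

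**Figure D4:**
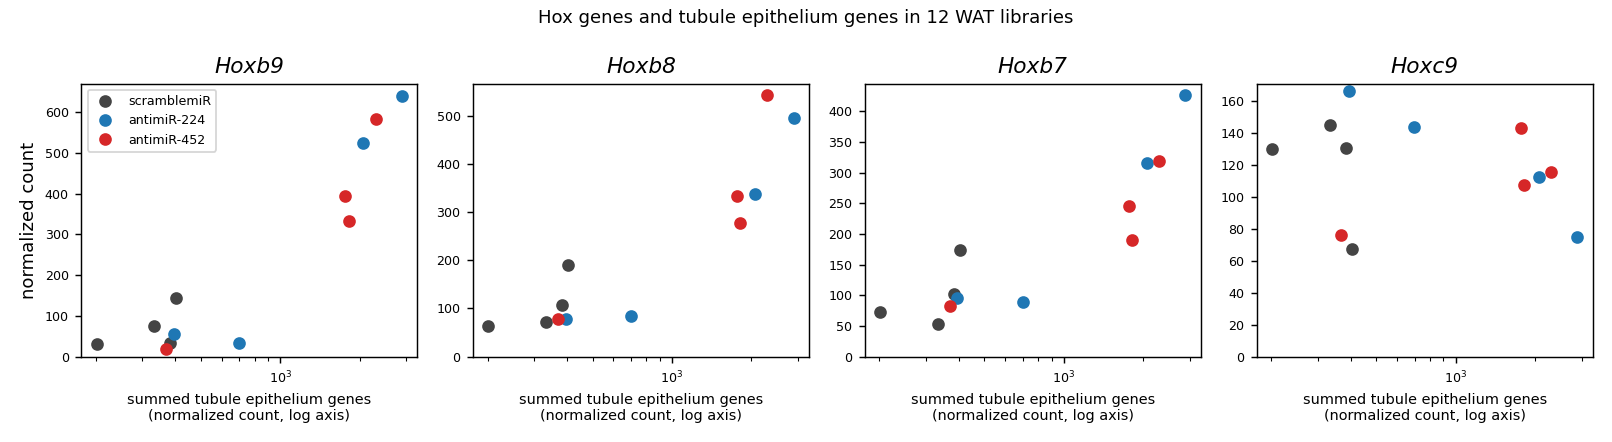
Normalized count of 4 Hox genes (y axes) against the summed normalized count of 11 tubule epithelium genes (x axis, log scale) in the 12 WAT libraries, coloured by treatment. For Hoxb9, Hoxb8 and Hoxb7 the 5 libraries with a sum of 1762 or more lie at the top, and for Hoxc9 they lie among the others.

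In BAT the smallest unadjusted p in the authors' deposited table was 0.0814 with antimiR-224 and 0.114 with antimiR-452. With antimiR-224 the first was Hoxa6, with means of 12.3 and 4.32 (log2 -1.51, adjusted p 1), followed by Hoxb4 at 206 and 268 (unadjusted p 0.342) and Hoxb9 at 4.12 and 7.07 (unadjusted p 0.346), in the authors' deposited table. With antimiR-452 it was Hoxc4, with means of 243 and 136 (log2 -0.84, adjusted p 1), then Hoxa6 at 12.4 and 4.99 (unadjusted p 0.138) and Hoxb3 at 87.5 and 53.4 (unadjusted p 0.254), in the authors' deposited table. Hoxa6 stood at 18.1, 18.3, 13.1 and 18.5 in the BAT controls, 8.25, 7.72, 0 and 8.08 under antimiR-224, then 1.19, 9.19, 4.47 and 12.6 under antimiR-452. Reads were few, at 49 over the 4 controls, 19 under antimiR-224 and 20 under antimiR-452. Hoxa6 was under the mean of 10 in both comparisons, so limma did not test it. Both inhibitor groups were set against the same 4 controls.

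BAT antimiR-452 library 1 stood apart in its Hox genes. Hoxc8 had 0 reads there and stood at 45.9, 201 and 154 in libraries 2 to 4. Hoxc6 stood at 5.94 there and at 159 to 301 in the other 11 BAT libraries. Hoxc5 stood at 13.1 against 216 to 588, and Hoxc4 at 41.6 against 151 to 504. Hoxa7 stood at 39.2 against 238 to 679, Hoxb5 at 8.31 against 27.6 to 65.6, and Hoxb8 and Hoxb9 were at 0 reads. Genes of the head end were mixed. Hoxa2 stood at 34.4, within the 23.1 to 61.7 of the other BAT libraries, and Hoxb3 at 58.2, within 49.1 to 148. Below all others were Hoxa3 at 124 against 201 to 359 and Hoxb2 at 51.1 against 86.4 to 213. So were Hoxa4 at 112 against 195 to 830 and Hoxb4 at 165 against 213 to 530.

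Hoxd8, Hoxd9 and Hoxd10 went the other way in that library, while Hoxd4 (19 against 6.45 to 24.3) and Hoxd3 (3.56 against 0 to 5.16) lay within the range of the others. Hoxd8 stood at 2294 there and at 209 to 797 in the other 11 BAT libraries. Hoxd9 stood at 673 there and at 16 to 231 in the others, and Hoxd10 at 4.75 against 2.20 or less. Hoxd8 and Hoxd9 were next highest in scramblemiR libraries 1 and 2 (687 and 797, 231 and 157) and antimiR-224 library 1 (590 and 165).

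Markers of several cell types moved with this. Of the 6 genes in the white adipocyte list, 4 were recovered in all 12 BAT libraries. They summed to 5363 in this library and to 319 to 1839 in the other 11. The brown adipocyte list, 4 of 12 genes recovered, summed to 1110 in it and to 1752 to 3697 in the other 11. It was also the highest of the 12 in macrophage genes (4846, others 1078 to 4009) and in stromal progenitor genes (3119, others 1516 to 3035). Leptin, of the white adipocyte list, stood at 709 there and at 24.3 to 311 in the others. Slc7a10 of the same list, however, stood at 1024 there and at 958 in scramblemiR library 1. Fgf13, a growth factor family member of that list singled out after its values were seen, did not differ between the WAT and BAT controls past the threshold (log2 0.13, adjusted p 0.954, limma) and stood at 807 there. It stood at 295 and 264 in scramblemiR libraries 1 and 2, 153 in antimiR-224 library 1 and 44.7 or less in the other 8. The brown fat genes Zic1 and Lhx8 were present in library 1, at 120 (others 153 to 553) and 89.1 (others 62.8 to 164). The part of these cell types in the Hox values was not tested.

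**Figure D5:**
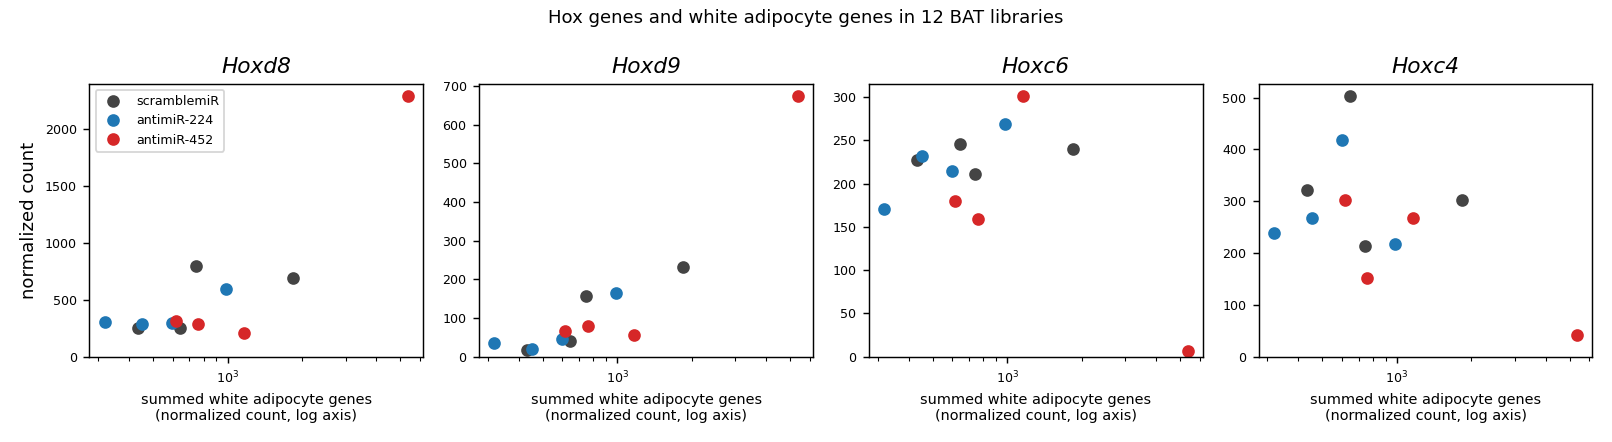
Normalized count of 4 Hox genes (y axes) against the summed normalized count of 4 white adipocyte genes (x axis, log scale) in the 12 BAT libraries, coloured by treatment. The antimiR-452 library 1, at the far right with a sum of 5363, is highest for Hoxd8 and Hoxd9 and lowest for Hoxc6 and Hoxc4.

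Hox proteins act with cofactors, and their clusters are held silent by Polycomb and active by Trithorax complexes. In the scramblemiR comparison of tissues, 3 of 9 cofactor genes were higher in WAT and none in BAT. Among them were Meis3 (log2 2.12, adjusted p 3.70e-04) and, named after its values were seen, Meis1 (1.30, adjusted p 0.00255), partners that bind DNA with Hox proteins. That compares with 21.6% and 21.1% of all genes, which also stand beside the counts that follow. Of 31 Polycomb genes, 3 were higher in WAT and 6 in BAT, shares no higher than those of all genes. The smallest p-values were those of Cbx6 (log2 1.40, adjusted p 3.82e-05) and Rnf2 (0.50, adjusted p 0.0105), higher in WAT, and Pcgf5 (-1.72, adjusted p 1.22e-04) and Pcgf3 (-0.60, adjusted p 0.00767), higher in BAT.

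Of 13 Trithorax and related genes, 1 was higher in WAT, Psip1 (log2 0.98, adjusted p 0.00585), and 3 in BAT, below and near the shares of all genes. Among those were Kdm6b, a demethylase that removes the Polycomb mark (log2 -1.32, adjusted p 8.43e-04), and the methyltransferase Kmt2d (-1.17, adjusted p 0.00181). Upstream regulators of Hox genes include the retinoic acid pathway. Of 18 such genes 13 were tested, and 4 were higher in WAT and 3 in BAT, counts that differ little from the shares of all genes. Higher in WAT were the retinoic acid synthesis genes Aldh1a2 (log2 5.48, adjusted p 8.17e-04), which mesothelium also expresses, and Aldh1a3 (3.82, adjusted p 0.00311). The retinoic acid receptor Rarb was higher in BAT (-3.15, adjusted p 3.82e-05).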

How the data were processed

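Libraries were strand-specific and made from oligo-dT selected RNA, per the labels' protocols. GRCm38.p4, R 2.15.3 and DESeq 1.10.1 are named in the submitters' processing notes. Not given in the sources used here: aligner, counting tool and strand setting. The authors deposited, for each inhibitor and tissue, a mean signal per group (normalized counts averaged over 4 libraries, per the file headers), and the ratio of the 2 means. Also deposited were the log2 of that ratio and a p-value before and after adjustment. Ids matched symbols for 99.42% to 99.48%.

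Group means printed to full precision were decoded into whole reads of 4 libraries. This was unique for 100% of genes in the controls and 83.97% to 88.83% in inhibitor groups, where abundant genes were left out. Means rebuilt from these reads matched within 5.1e-15 (relative), and the decoding and the fits were tested on simulated data. There the tissue comparisons recovered 35% to 47% of 2-fold and 82% to 93% of 4-fold changes. The comparison of antimiR-224 with scramblemiR in WAT recovered 40% and 87%, and the antimiR-224 interaction 15% and 66%. A gene that did not pass may therefore differ. Libraries were scaled by median-ratio size factors over all 24 (inhibitor comparisons: the deposited ones) and tested on log2(count + 1) by limma 3.58.1 (R 4.3.3). Its trend and robust options were used, genes needed a mean of 10 or more, and Benjamini-Hochberg adjusted p-values over all genes were held to 0.05. Fold changes on this scale understate changes of low genes. Exact binomial intervals and the floor of 3 reads cover counting error only.

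The tissues were treated as independent, though some mice may have given both. Named were all members called between tissues, the 3 with the smallest p for each inhibitor, and for each list the 2 with the smallest p in each direction. Some genes that this rule names are not reported here, in the text or the figures. The members and lists were chosen with earlier results of these data known. Alternatives were pseudocounts of 0.5 and 5, no filter, a mean of at least 50, no robust variance, other scalings, libraries left out, libraries over 5 times the tissue median in markers of other tissues left out, and all 24 libraries together.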

Additional observations from a re-analysis of the deposited data

Results flagged for a closer look

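Among 141 sets of 4 libraries tested for a sample far from the others, 7 were marked, and chance marks about 1 in 20. Hoxd8 stood at 2294 in BAT antimiR-452 library 1 (others 209 to 315) and at 590 in BAT antimiR-224 library 1 (others 290 to 305). Hoxd9 stood at 673 (others 55.1 to 78.2) and 165 (others 21.0 to 45.3) in the same 2 libraries. Hoxc8 stood at 175 in BAT scramblemiR library 1 (others 47.0 to 64.7). Hoxc4 stood at 409 in WAT scramblemiR library 3 (others 266 to 274). Hoxa6 stood at 13.1 in BAT scramblemiR library 3, below the 18.1 to 18.5 of the others. The causes were not tested.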

How the results depend on the processing

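In the scramblemiR comparison of tissues, a mean of at least 50 left 8 Hox genes higher in WAT, since fewer genes were tested, and scaling by library totals, chosen after the data were seen, left 1 higher in BAT. Leaving out 1 library at a time gave 10 to 13 and 2 to 3. With antimiR-224 the counts were 8 to 14 and 3 to 3, and with antimiR-452 2 to 14 and 1 to 2. Without the libraries high in other tissues' markers, the antimiR-452 counts were 1 and 0. In WAT with antimiR-452, 0 to 4 Hox genes passed with a library left out, and 0 in the other inhibitor comparisons and both interactions. The 4 passed without antimiR-452 library 4, the lowest of its group in these genes, so larger differences follow from that choice. Without antimiR-224 libraries 1 and 2 (also chosen later) Hoxb9, Hoxb7 and Hoxb6 reversed to -0.45, -0.012 and -0.31 in WAT, a drop that follows from leaving out their highest values. The causes of the other changes were not tested. No paired analysis was possible because recovered libraries cannot be tied to the replicate numbers of the sample titles. Low read numbers limit Hoxa10, Hoxc9 and Hoxc10 in BAT, and per-library values of Hoxc8 and Hoxa7 in the WAT inhibitor groups are unknown.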
